A study of Mus musculus with 6 samples.

Results

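The transcripts of 9 hepatocyte identity transcription factors were read in mouse liver with and without DEHP, a phthalate plasticizer. The genes were Hnf4a, Foxa1, Foxa2, Foxa3, Cebpa, Cebpb, Onecut1, Prox1 and Nr5a2, chosen by name as factors that keep the hepatocyte state. All 9 had a row of their own among 41096 annotated rows, and all 9 passed the filter on low counts, as did 12468 rows in all. Polyadenylated RNA was sequenced in 6 libraries, 3 from control livers and 3 from livers labelled as exposed. The labels give the tissue and the exposure but no strain, dose, duration, age, sex or genotype, and do not say that libraries came from separate animals, so p-values measure only the spread between these samples. Libraries held 10410098 to 14229803 counts. Whole liver RNA mixes cell types, and fewer cells of a type and less RNA per cell cannot be told apart.

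These factors form the network that switches on liver genes and keeps them on. FOXA proteins open compacted chromatin so that other factors can bind, and HNF4A, a nuclear receptor, then drives most hepatocyte genes for lipoproteins, clotting factors and metabolism. C/EBPalpha serves the resting metabolic liver while C/EBPbeta serves acute phase and regeneration programs, ONECUT1 acts above HNF4A and FOXA2 in development, and NR5A2 drives bile acid synthesis, with PROX1 as a corepressor of both NR5A2 and HNF4A.

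Of the promoters of these genes, 4 are printed for genes that the results below turn on. They belong to the factor most abundant per kb and the gene at the centre of the network. The others belong to the gene whose groups did not overlap and a FOXA gene with a FOXA motif. Sequences are from RefSeq on GRCm38.p6, read 5′ to 3′ on the gene's strand, each with 250 bases before and 50 bases from the annotated start on. Capitals mark matches, on either strand, to any of 6 motifs: the FOXA motif TGTTTAC, the C/EBP motif TTGCNNAA, the HNF4 motif CAAAGTCCA, the ONECUT motif ATTGAT, the cyclic AMP response motif TGACG and the TATA box TATAAA.
Cebpb, chr2:167688665-167688964, plus strand: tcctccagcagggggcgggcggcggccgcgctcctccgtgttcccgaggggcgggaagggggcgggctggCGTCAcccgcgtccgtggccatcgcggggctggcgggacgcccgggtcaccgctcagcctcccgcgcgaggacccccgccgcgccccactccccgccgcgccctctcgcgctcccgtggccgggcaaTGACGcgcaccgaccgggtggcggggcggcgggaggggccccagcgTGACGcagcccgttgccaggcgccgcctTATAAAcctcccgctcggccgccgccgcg
Hnf4a, distal start, chr2:163506607-163506906, plus strand: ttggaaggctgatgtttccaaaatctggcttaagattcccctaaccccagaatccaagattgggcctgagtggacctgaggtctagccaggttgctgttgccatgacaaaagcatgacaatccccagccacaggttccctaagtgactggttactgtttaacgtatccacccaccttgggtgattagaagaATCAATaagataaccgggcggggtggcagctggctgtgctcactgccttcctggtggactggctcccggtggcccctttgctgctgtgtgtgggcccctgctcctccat
Foxa3, chr7:19023490-19023789, minus strand: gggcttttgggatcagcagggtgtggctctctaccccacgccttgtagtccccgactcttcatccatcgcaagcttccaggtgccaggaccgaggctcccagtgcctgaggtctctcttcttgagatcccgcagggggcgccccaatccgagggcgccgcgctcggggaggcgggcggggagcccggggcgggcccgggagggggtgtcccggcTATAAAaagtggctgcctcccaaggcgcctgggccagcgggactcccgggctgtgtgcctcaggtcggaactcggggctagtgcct
Foxa1, chr12:57546062-57546361, minus strand: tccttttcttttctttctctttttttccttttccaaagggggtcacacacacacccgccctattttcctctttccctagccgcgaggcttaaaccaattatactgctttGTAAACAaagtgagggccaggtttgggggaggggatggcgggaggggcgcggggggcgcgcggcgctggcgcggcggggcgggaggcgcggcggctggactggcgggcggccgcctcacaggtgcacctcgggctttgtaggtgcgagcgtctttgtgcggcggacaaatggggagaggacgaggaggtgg

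The Hnf4a window, at the distal of its annotated starts, held an ONECUT motif at bases 192 to 197, which 7.54% of all 32851 windows of this length hold. The window at its other start, chr2:163546905-163547204, is not printed and matched none of the motifs. Which of these starts the livers used was not measured. In the Foxa1 window the FOXA motif stood at bases 110 to 116 (3.65% of windows). Cebpb carried 3 copies of TGACG (20.8% of windows hold at least 1) and the letters TATAAA at bases 272 to 277, past the annotated start. Foxa3 carried TATAAA alone, at bases 215 to 220, before the start (13.6% of windows). Over all 14 windows of the 9 genes, the C/EBP motif matched in 1, an Nr5a2 window (10.8% of windows), and the HNF4 motif in 0 (0.475%). TATAAA matched in 6 of the 14, TGACG in 3, the ONECUT motif in 2 and the FOXA motif in 1. A match describes letters, not binding. The count table has 1 row for Hnf4a, so transcripts from its annotated starts were not separated.

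Per kilobase of gene length, the levels ran over more than 2 orders of magnitude. CPM is a gene's count scaled to the library total with TMM factors, and CPM per kb divides by the gene length in the table. Cebpb stood highest with 306.7 ± 62.4 CPM per kb, then Cebpa with 199.2 ± 37.7 and Hnf4a with 146.4 ± 20.2 (SD over all 6 libraries). Among 786 tested rows that the table assigns to a transcription factor family, these were the 3 highest by mean. Foxa3 followed with 33.2 ± 6.63 CPM per kb, Foxa2 with 16.2 ± 2.79, Prox1 with 10.6 ± 2.76, Nr5a2 with 8.36 ± 0.690 and Foxa1 with 5.75 ± 1.38 (SD, 6 libraries). Onecut1 was last with 0.714 ± 0.473 CPM per kb, place 632 of the 786. The ranges over libraries did not overlap between Hnf4a and Foxa3, between Foxa3 and Foxa2, or between Foxa1 and Onecut1. Elsewhere neighbours in this order overlapped in range, though Cebpb exceeded Cebpa, and Cebpa exceeded Hnf4a, in 6 of 6 libraries. Prox1 exceeded Nr5a2 in 4 of 6 libraries, so their order was not resolved.

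**Figure D1:**
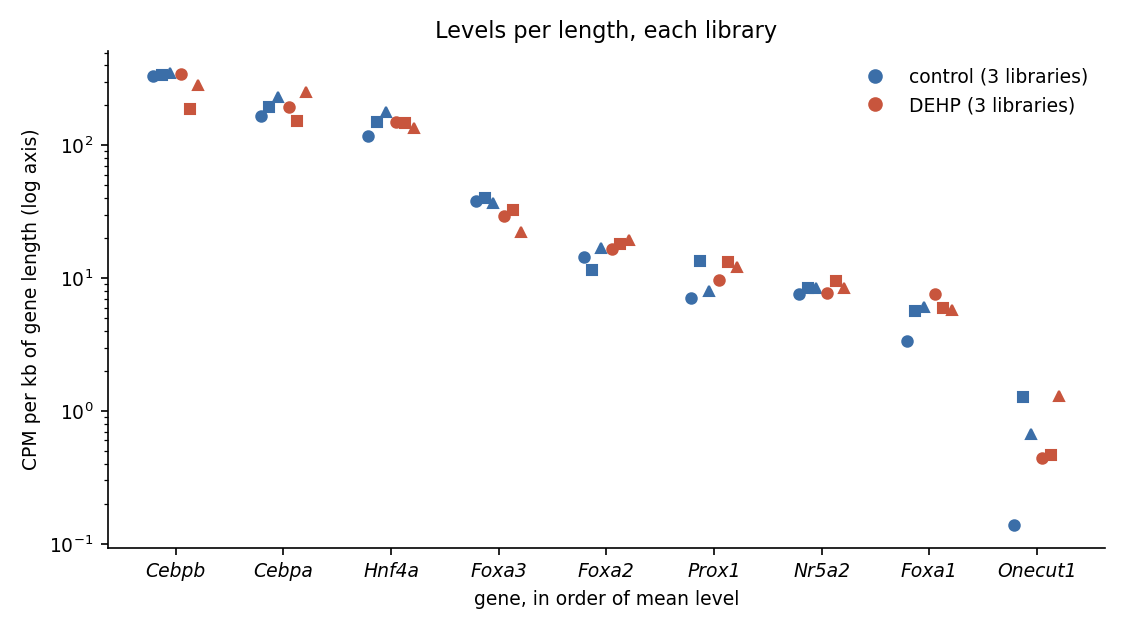
Level of each transcription factor in CPM per kb of gene length (log axis), with 1 point per library; circles, squares and triangles are replicates 1, 2 and 3. Cebpb, Cebpa and Hnf4a lie above 100 CPM per kb in every library, and Onecut1 lies below 1.5 CPM per kb.

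Of the 9 factors, 0 passed an adjusted p of 0.05 between exposed and control livers, where 0.0722% of all genes tested passed in edgeR (0.0561% as higher, 0.016% as lower). Of the 9, 1 had an unadjusted p under 0.05, Foxa3, against 13.1% of all genes (6.97% lower and 6.11% higher), and Foxa3 was also the only member of the 9 whose groups did not overlap, against 17.7% of all genes (8.57% lower and 9.17% higher). The other 777 tested transcription factor rows had 0 past the adjusted threshold, 72 at an unadjusted p of 0.05 (9.27%) and 110 without overlap (14.2%). DESeq2 and limma-voom also called 0 of the 9, with 1 at an unadjusted p of 0.05 each. In edgeR the number of members at an unadjusted p of 0.05 fell to 0 with no low-count filter. It was also 0 without control replicate 1, without DEHP replicate 1 and without DEHP replicate 3. The median log2 fold change of exposed over control was 0.07 over the members, with 6 positive and 3 negative, and -0.03 over all genes tested. Their median size of change regardless of sign, 0.29, lay beside 0.28 over all genes tested.

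**Figure D2:**
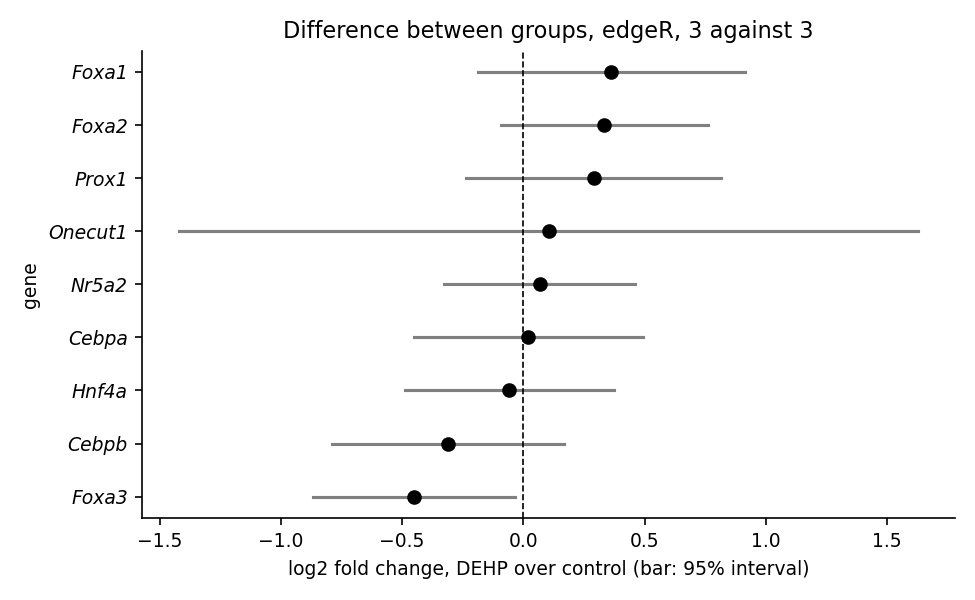
Log2 fold change of exposed over control for each factor, with points for the fitted value and bars for its 95% interval. Each interval includes 0 except that of Foxa3, which runs from -0.87 to -0.03 and whose adjusted p is 0.356.

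HNF4A is the nuclear receptor at the centre of the network. Hnf4a was 572, 724 and 867 CPM in control replicates 1 to 3, and 720, 706 and 651 CPM in DEHP replicates 1 to 3. The exposed libraries all lay inside the range of the controls, whose lowest was replicate 1 and highest replicate 3. Its log2 fold change was -0.06 ± 0.20 (SE, adjusted p = 0.937), with a 95% interval from 0.713-fold to 1.30-fold. The sign rested on 1 library, since without control replicate 3 the value was 0.12 (adjusted p = 0.836). Hnf4a spans chromosome 2 from 173786840 to 173852880, plus strand, in the table's own coordinates, which carry gene identifiers of the C57BL/6NJ strain. Hnf4aos, an antisense RNA, overlaps it over 28590 bases on the minus strand. Hnf4aos stood at 12.4, 6.95 and 10.7 CPM in controls. Exposed livers had 15.7, 11.5 and 18.1 CPM, a log2 fold change of 0.59 ± 0.28 (adjusted p = 0.396), and 0.39 without control replicate 2. The strand setting of the counting is not known, so reads of the pair cannot be told apart. Adding the antisense row to Hnf4a moved its value only to -0.05.

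Of the 3 FOXA genes 0 passed, and Foxa3 was the 1 whose exposed libraries all lay below the controls. FOXA3 is the family member most restricted to liver and gut. Foxa3 was 78.0, 81.7 and 74.6 CPM in the controls and 59.9, 66.0 and 45.4 CPM in the exposed livers. All 3 exposed libraries lay below all 3 controls, and DEHP replicate 3 was the lowest. The log2 fold change was -0.45 ± 0.19 (SE, unadjusted p = 0.0359, adjusted p = 0.356), a fold of 0.731 with a 95% interval from 0.547 to 0.976. Leaving out each library in turn gave values from -0.56 to -0.31, and it did not pass in any of these fits. Foxa3 spans chromosome 7 from 17844270 to 17855071, minus strand. Its divergent neighbour Sympk, a scaffold of the mRNA cleavage and polyadenylation machinery, starts 838 bases away on the plus strand. Sympk had 99.7, 77.5 and 78.3 CPM in controls. In exposed livers it had 63.1, 40.7 and 71.4 CPM, with a log2 fold change of -0.54 ± 0.23 (adjusted p = 0.343). These groups did not overlap either, and Sympk was singled out with its values known. Sinusoidal endothelial markers were lower beside it: the summed level of all 6 was 268.4 to 323.9 CPM in controls and 144.1 to 267.7 in exposed livers, with all 6 log2 fold changes negative and 0 past the adjusted threshold (2 at an unadjusted p of 0.05). Of these, Stab1, a scavenger receptor, and Clec4g, a lectin, had values of -0.53 and -0.84 (adjusted p = 0.350 and 0.281). Lower values were not particular to endothelium. Stellate cell markers had 1 positive and 5 negative values, and Kupffer cell and macrophage markers 0 positive and 7 negative. B cell markers had 2 positive and 0 negative. Without DEHP replicate 2, Sympk, Stab1 and Clec4g lay at -0.33, -0.31 and -0.52. Their part in the Foxa3 value was not tested.

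FOXA1 and FOXA2 are the pioneer pair needed for liver to form. Foxa1 was 10.7, 17.9 and 19.5 CPM in controls and 24.4, 19.02 and 18.4 CPM in exposed livers. Control replicate 1 was low and DEHP replicate 1 high, with the other 4 libraries within a narrow band. Its log2 fold change was 0.36 ± 0.26 (adjusted p = 0.585), and 0.14 without control replicate 1. Foxa2 was 34.2, 27.3 and 40.2 CPM in controls and 39.4, 43.1 and 45.7 CPM in exposed livers. Control replicate 3 reached into the exposed range, and the log2 fold change was 0.33 ± 0.20 (adjusted p = 0.499), and 0.20 without control replicate 2. Foxa1 spans chromosome 12 from 58406052 to 58411534 and Foxa2 chromosome 2 from 156809520 to 156813612, both on the minus strand.

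The 3 genes were also taken as shares of the summed Foxa level per kb, a measure that does not depend on library scaling. Foxa3 made up 68.3%, 70.0% and 61.3% of the sum in controls and 54.8%, 57.3% and 47.1% in exposed livers. Foxa2 made up 25.7%, 20.1% and 28.4% in controls and 31.0%, 32.1% and 40.7% in exposed livers. Foxa1 made up 5.98%, 9.82% and 10.2% in controls and 14.3%, 10.6% and 12.2% in exposed livers. For each of the 3 genes the share did not overlap between groups, and means for Foxa3 were 66.55% ± 4.60 and 53.05% ± 5.35 (SD, n = 3). In CPM, Foxa1 and Foxa2 did overlap between groups and only Foxa3 did not. The log2 fold changes were -0.45 for Foxa3, 0.33 for Foxa2 and 0.36 for Foxa1, none past the adjusted threshold. The shares therefore combine a lower Foxa3 with higher Foxa2 and Foxa1 values. The part of each gene in them was not separated. How often such shares separate for other sets of genes was not counted. The 3 shares sum to a fixed total, so they are not independent, and no test was made on them. The summed level itself was 57.7 ± 1.84 CPM per kb in controls and 52.5 ± 4.72 in exposed livers (SD, n = 3), with overlapping groups. Without dividing by length, the Foxa3 share ran from 55.5% to 64.3% in controls and from 41.4% to 51.5% in exposed livers.

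**Figure D3:**
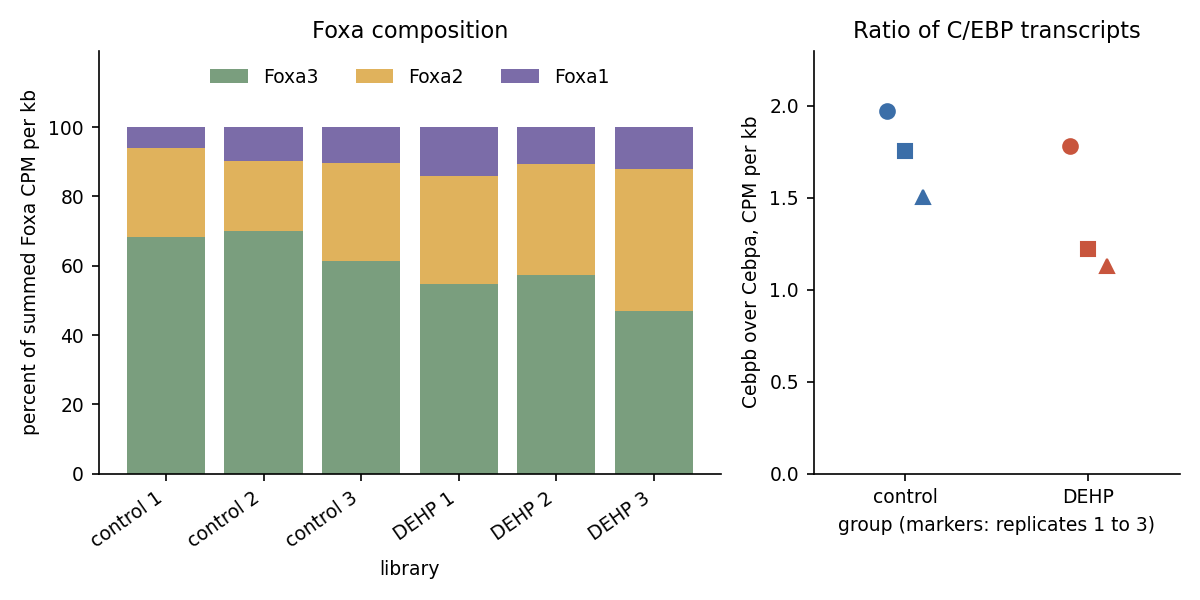
Left, percent of the summed Foxa CPM per kb held by Foxa3, Foxa2 and Foxa1 in each library; right, the ratio of Cebpb to Cebpa in CPM per kb for each library. Foxa3 holds 61.3% to 70.0% in the control bars and 47.1% to 57.3% in the exposed bars, while the C/EBP ratios of the groups overlap.

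C/EBPalpha and C/EBPbeta bind the same DNA motif. Cebpa was 442, 510 and 612 CPM in controls and 513, 406 and 668 CPM in exposed livers. The exposed libraries spanned more than the whole control range, and the log2 fold change was 0.02 ± 0.22 (adjusted p = 0.979), with a 95% interval from 0.731-fold to 1.41-fold. Its sign changed without control replicate 1 (-0.08), without DEHP replicate 3 (-0.18), and with both control replicates 1 and 2 left out (-0.20). Cebpa spans chromosome 7 from 36180150 to 36182785, plus strand. Its antisense neighbour Gm45091, which overlaps it over 313 bases, held 6 to 24 counts a library (log2 fold change 0.94 ± 0.63, adjusted p = 0.556).

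Cebpb was 498, 510 and 525 CPM in controls and 521, 283 and 431 CPM in exposed livers. The controls were close together (coefficient of variation 2.58%) and the exposed livers were not (29.2%), with DEHP replicate 2 lowest and DEHP replicate 1 among the controls. The log2 fold change was -0.31 ± 0.22 (adjusted p = 0.590). It was -0.09 without DEHP replicate 2 and -0.50 without DEHP replicate 1, so 1 exposed library decided much of its size. Cebpb spans chromosome 2 from 178519948 to 178521451, plus strand.

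The ratio of Cebpb to Cebpa per kb was 1.97, 1.75 and 1.503 in controls and 1.78, 1.22 and 1.13 in exposed livers. Cebpb was the more abundant in 6 of 6 libraries. The difference of the mean log2 ratio was -0.36, from 0.79 ± 0.20 in controls to 0.43 ± 0.35 in exposed livers (SD, n = 3). An exact two-sided permutation test gave p = 0.3, and 3 against 3 libraries cannot go below 0.1. DEHP replicate 1 lay above 2 of the 3 controls.

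**Figure D4:**
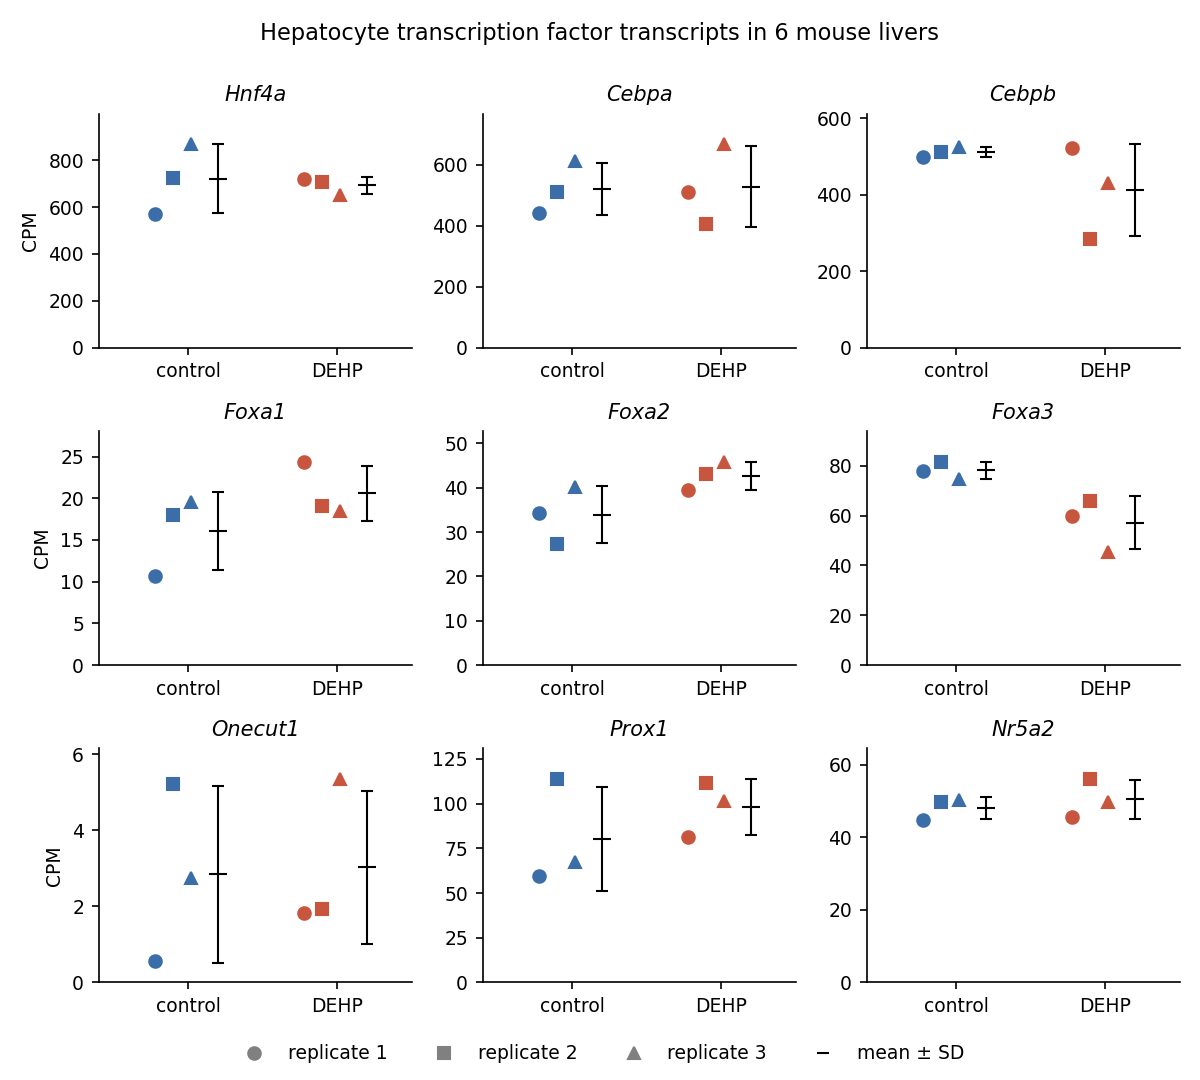
CPM of each factor in the 6 libraries, with 1 panel per gene and a vertical axis from 0; symbols are replicates and black bars the mean ± SD of 3 libraries. Foxa3 is the panel in which all exposed points (45.4 to 66.0 CPM) lie below all control points (74.6 to 81.7 CPM).

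ONECUT1 is a homeodomain factor of early liver and bile duct formation. In controls Onecut1 had 8, 66 and 31 counts (0.567, 5.22 and 2.75 CPM). The exposed libraries had 18, 22 and 63 counts (1.82, 1.92 and 5.35 CPM). Both groups spanned a wide and overlapping range, and 8 and 66 counts have 95% Poisson intervals of 3.45 to 15.8 and 51.0 to 84.0, which cover counting error only. The log2 fold change was 0.10 ± 0.70 (adjusted p = 0.967), with a 95% interval from 0.374-fold to 3.09-fold. It was -0.59 without DEHP replicate 3, -0.39 without control replicate 1 and 0.90 without control replicate 2. Onecut1 spans chromosome 9 from 77125955 to 77157712, plus strand. An unnamed locus, on the minus strand per the table, lies 936 bases past its end and was singled out with its values known. That locus held more counts than Onecut1 itself, namely 368, 338 and 152 in controls. In DEHP replicates it held 261, 501 and 909. Whether these reads belong to Onecut1 was not tested. The close relative Onecut2 was 57.2, 56.1 and 63.6 CPM in controls and 83.8, 77.3 and 68.3 CPM in exposed livers. Its groups did not overlap, and the log2 fold change was 0.37 ± 0.18 (adjusted p = 0.403).

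PROX1 is a homeodomain protein that hepatocytes share with lymphatic endothelium. Prox1 was 59.7, 114 and 67.3 CPM in controls and 81.2, 112 and 102 CPM in exposed livers. Control replicate 2 was the highest of all 6 libraries, while the other controls were the lowest. The log2 fold change was 0.29 ± 0.24 (adjusted p = 0.661), 0.63 without control replicate 2 and 0.12 without control replicate 1. Of 5 lymphatic markers 4 had a row, and their summed level was 43.8 to 74.4 CPM in controls and 44.6 to 61.2 in exposed livers. Prox1 spans chromosome 1 from 203361239 to 203415584, minus strand. Prox1os, which overlaps its first 419 bases on the other strand, ranged from 7.11 to 11.2 CPM in controls. It ranged from 8 to 13.8 CPM with DEHP, a log2 fold change of 0.38 ± 0.30 (adjusted p = 0.628).

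NR5A2 activates genes of bile acid synthesis and sterol export. Nr5a2 was 44.7, 49.7 and 50.2 CPM in controls and 45.5, 56.1 and 49.8 CPM in exposed livers. It was the steadiest of the 9 genes, with a highest library 1.25 times the lowest. Its log2 fold change was 0.07 ± 0.18 (adjusted p = 0.914), with a 95% interval from 0.798-fold to 1.37-fold. Nr5a2 spans chromosome 1 from 145743095 to 145872907, minus strand. Pancreatic acinar cells also use NR5A2, and of 7 acinar marker rows 4 held no count, with a summed level of 11.7 to 18 CPM over all libraries.

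The libraries themselves gave some order to the members. Control replicate 1 was the lowest of the 3 controls for 7 of the 9 factors, where it was lowest for 36.6% of all genes tested, and control replicate 3 was the highest for 6, where it was highest for 33.9%. Control replicates 1 and 2 also stood apart in interferon-stimulated genes, whose summed level was 3629 and 2741 CPM there, 338.8 in control replicate 3 and 287.5 to 364.7 in exposed livers. Kupffer cell and macrophage markers summed to 408.2 and 347.5 CPM in those 2 libraries, 136.5 in control replicate 3 and 152.7 to 208.0 in exposed livers. Leaving both out keeps 1 control library, so the spread then comes from the exposed libraries alone and the fit is no test of the members. The log2 fold change was -0.37 for Foxa3 and -0.34 for Cebpb there. Hepatocyte markers were abundant in every library, with Alb, serum albumin, at 64373 to 108084 CPM. Cholangiocyte markers summed to 47.3 to 103.9 CPM in controls and 65.6 to 82.6 in exposed livers.

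By likeness over the 6 libraries, the 2 most variable members were set beside 7066 named genes of at least 10 CPM. Onecut1 had the largest SD of log2 CPM (1.20), and the nearest genes were Homer2, Hivep1 and Acot3, with root mean square differences of 0.53, 0.60 and 0.60. Those distances are a large part of its own SD, so no gene followed it closely. Foxa1 (SD 0.39) was nearest to Cnst, Birc6 and Nabp2, with differences of 0.09, 0.09 and 0.10. These are descriptions of the pattern only.

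Among other liver-enriched factors, partners and inhibitors, 27 of 28 genes were tested and 0 passed the adjusted threshold (edgeR; unadjusted p under 0.05 for 1 higher and 1 lower). The median log2 fold change was -0.02, with 12 positive and 15 negative, and ran from -0.08 to 0.10 with 1 library left out. Groups did not overlap for 3 higher and 1 lower, against 9.17% and 8.57% of all genes tested. Rxra, a partner of many nuclear receptors, Creb3l3, a membrane-bound hepatic factor, and Klf15, a regulator of gluconeogenesis, had the highest mean CPM, with -0.13 ± 0.19, 0.16 ± 0.19 and -0.22 ± 0.26 (adjusted p = 0.816, 0.756 and 0.767). Per kb, Atf5 stood above all 3 (127.5 CPM per kb). Single libraries moved these values, to -0.01 for Rxra without DEHP replicate 2, to 0.06 for Creb3l3 without control replicate 1 and to 0.08 for Klf15 without control replicate 3. Nr0b2, the corepressor SHP that restrains NR5A2 and HNF4A, had -0.37 ± 0.40 (adjusted p = 0.751), with -0.76 without DEHP replicate 1 and -0.11 without DEHP replicate 3. Besides Onecut2, groups did not overlap for Atf5, a stress and liver factor (-0.73 ± 0.25, adjusted p = 0.273, and -0.39 without control replicate 3), Tbx3, a T-box factor (0.54 ± 0.21, adjusted p = 0.322), and Cebpg, a C/EBP partner (0.20 ± 0.18, adjusted p = 0.679).

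Target genes of each factor were taken from general knowledge, and the lists share genes. The ONECUT1 list also holds Hnf4a and Foxa2 of the 9 factors, and the FOXA list holds Onecut1. An unadjusted p under 0.05 in edgeR was found for 13.1% of all genes tested. Groups did not overlap for 17.7% of them (9.17% higher and 8.57% lower). Of 21 tested HNF4A targets 0 passed (edgeR; unadjusted p under 0.05 for 4 higher and 4 lower), and the median log2 fold change was 0.00 (0.268 without control replicate 3). Those of highest mean CPM were Apoa1, Apoa2 and Ttr, a pair of lipoprotein proteins and a thyroid hormone carrier, with -0.69 ± 0.25, 0.25 ± 0.22 and -0.19 ± 0.24 (adjusted p = 0.290, 0.673 and 0.781). They moved to -0.42 without control replicate 1, 0.08 without control replicate 2 and -0.01 without DEHP replicate 3. Groups did not overlap for 5 that were higher and 1 that was lower. The lower was Apoa4, an apolipoprotein of fat absorption and fasting, with 391, 151 and 223 CPM in controls and 50.7, 66.2 and 109 in exposed livers (-1.76 ± 0.39, adjusted p = 0.169). The higher were Apob, Slc10a1, Otc, Abcg8 and Cyp7a1, with log2 fold changes of 0.25 to 1.69. Without control replicate 1, Apob lay at 0.15 and Otc at 0.27. Of the genes just named, DESeq2 called Apoa4 and Cyp7a1 (adjusted p = 8.34e-05 and 1.99e-05).

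Of 10 tested NR5A2 targets 0 passed (edgeR, with an unadjusted p under 0.05 for 4 higher and 1 lower). Their median log2 fold change was 0.415 beside -0.03 over all genes, and 0.299 to 0.616 with 1 library left out. The 4 higher and 1 lower are all in the HNF4A list as well, whose median was 0.00, so they cannot be assigned to NR5A2. Cyp7a1 encodes the enzyme that limits the rate of bile acid production. Its level was 33.7, 29.6 and 33.1 CPM in controls and 52.8, 138 and 119 CPM in exposed livers. All exposed libraries lay above all controls, DEHP replicate 1 the least (1.69 ± 0.30, adjusted p = 0.120). It passed without control replicate 3 (adjusted p = 0.0162) or DEHP replicate 1 (adjusted p = 3.41e-04). Cyp8b1, which sets the share of cholic acid, was 205, 119 and 321 CPM in controls and 235, 702 and 934 CPM in exposed livers, with overlapping groups (1.54 ± 0.61, adjusted p = 0.378). Slc10a1, the bile acid uptake carrier, Gls2, liver glutaminase, and Abcg8, a sterol exporter, had 0.60 ± 0.23, 0.52 ± 0.25 and 0.60 ± 0.20 (adjusted p = 0.322, 0.395 and 0.271). Without control replicate 1, Slc10a1 lay at 0.37 and Gls2 at 0.26. The transcript of NR5A2 itself differed by less than the spread between libraries, as given above.

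FOXA targets numbered 11, all tested, with 0 past the adjusted threshold (edgeR; unadjusted p under 0.05 for 4 higher and 0 lower) and a median log2 fold change of 0.10. That median was -0.155 without control replicate 1, 0.397 without control replicate 3 and 0.373 with limma-voom. Alb and Pck1, the latter a gluconeogenic enzyme, had -0.10 ± 0.24 and -0.08 ± 0.24 (adjusted p = 0.901 and 0.917), and both signs changed without control replicate 3 or DEHP replicate 3. G6pc, glucose-6-phosphatase, was 200, 250 and 242 CPM in controls and 263, 466 and 408 in exposed livers (0.72 ± 0.23, adjusted p = 0.233). Cpt1a, the gate of mitochondrial fatty acid oxidation, was the other gene without overlap (0.49 ± 0.22, adjusted p = 0.366). Of 10 C/EBP metabolic targets 0 passed (edgeR; unadjusted p under 0.05 for 2 higher and 0 lower), with a median of 0.32 (0.188 to 0.375 with 1 library left out). They include Tat, tyrosine aminotransferase (-0.05 ± 0.40, adjusted p = 0.973), Cps1, the first urea cycle enzyme (0.73 ± 0.28, adjusted p = 0.313), and Arg1, arginase, whose groups did not overlap (-0.24 ± 0.19, adjusted p = 0.627). ONECUT1 targets had 0 of 9 past the threshold (edgeR, with an unadjusted p under 0.05 for 2 higher and 0 lower). The 2 higher, G6pc and Cyp7a1, are on other lists as well. The median was 0.06, which changed sign without control replicate 1 (-0.0425). It was 0.263 without control replicate 3 and 0.219 with limma-voom.

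Acute phase genes that C/EBPbeta binds had the lowest median of these target lists, -0.88 over 12 tested, with 9 negative. Of these 0 passed (edgeR; unadjusted p under 0.05 for 0 higher and 5 lower), and 7 passed as lower without control replicate 3. The median was -0.572 without control replicate 1. Hp, haptoglobin, was 23965, 15810 and 8305 CPM in controls and 10728, 8084 and 6417 CPM in exposed livers (-0.93 ± 0.35, adjusted p = 0.320). Control replicate 3 lay among the exposed livers, as it did in interferon-stimulated genes, and the Hp value was -0.52 without control replicate 1 and 0.03 with control replicates 1 and 2 left out. Hpx, hemopexin, and Itih4, an inhibitor heavy chain, had groups that did not overlap (-1.16 ± 0.30 and -1.04 ± 0.25, adjusted p = 0.178 and 0.151). Hpx was 15969, 15735 and 6745 CPM in controls and 6514, 5977 and 4664 CPM in exposed livers. Itih4 was 1810, 1898 and 937 CPM in controls and 807, 765 and 692 CPM in exposed livers. In both, control replicate 3 lay nearest the exposed range. Both passed without control replicate 3 (adjusted p = 0.00101 and 0.00150) and with DESeq2. Fgb, fibrinogen beta, had -0.32 ± 0.22 (adjusted p = 0.565), and -0.14 without DEHP replicate 1. With control replicates 1 and 2 left out, which keeps 1 control, the median of the list was 0.145. The 3 controls of Cebpb itself lay between 498 and 525 CPM.

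**Figure D5:**
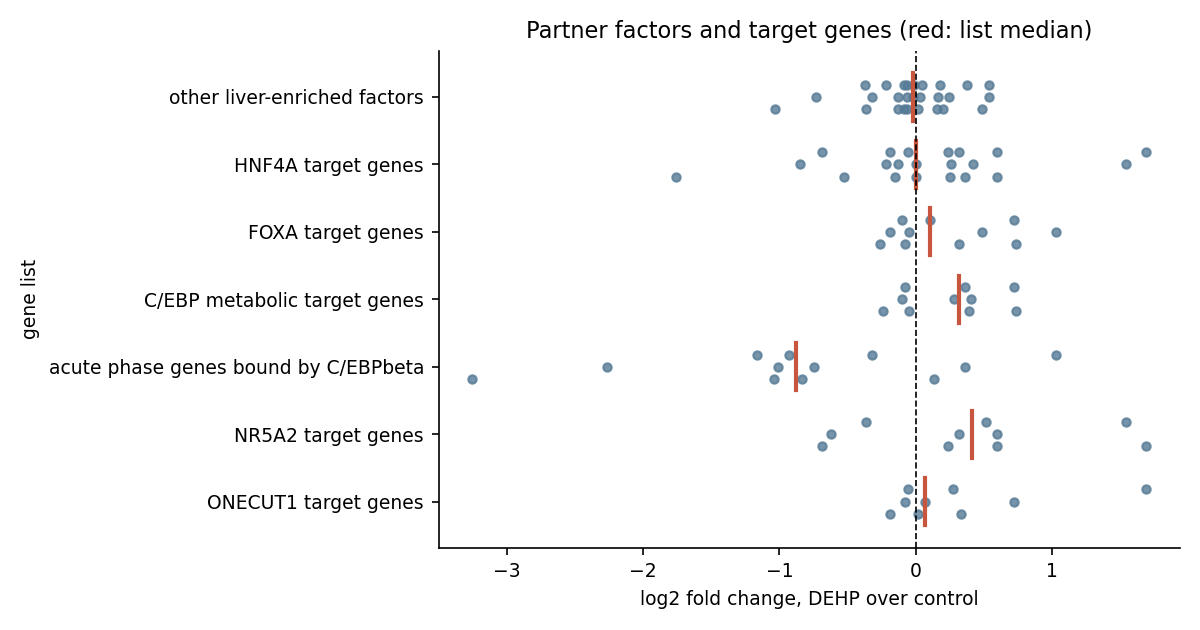
Log2 fold change of exposed over control for tested genes of each list, with 1 point per gene (spread vertically only for legibility) and red bars at the list medians. The acute phase genes have a median of -0.88 and the NR5A2 targets 0.415.

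Fetal liver and dedifferentiation genes were listed as tied to loss of hepatocyte identity, and 7 of 13 were tested. Of these 0 passed the adjusted threshold (edgeR, with an unadjusted p under 0.05 for 0 higher and 2 lower). The median log2 fold change was -0.33, with 1 positive and 6 negative. Without control replicate 2 the median was -0.0773, and without DEHP replicate 3 it was -0.558. Krt18 and Krt8, the keratin pair of hepatocytes, had the highest mean CPM. They were also the 2 with an unadjusted p under 0.05, and as hepatocyte keratins they do not mark dedifferentiation alone. Krt8 was 396, 321 and 317 CPM in controls and 241, 219 and 265 CPM in exposed livers (-0.51 ± 0.19, adjusted p = 0.300). Krt18 groups did not overlap either, with -0.50 ± 0.22 (adjusted p = 0.374), but the value was -0.20 without control replicate 1. Spp1, osteopontin, had -0.19 ± 0.35 (adjusted p = 0.865), with a change of sign without control replicate 3. The positive gene was Sox9, with 0.78 ± 0.42 (adjusted p = 0.447) and overlapping groups. It was low, at 2.41, 2.84 and 3.54 CPM in controls and 4.15, 7.42 and 3.48 CPM in exposed livers.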

How the data were processed

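The deposited table gives raw read counts for each gene, with 1 column per library, made by the authors from poly-A selected libraries made with a directional kit, per the labels' protocols. The submitters' processing notes name GRCm38.p6, but the gene identifiers are of C57BL/6NJ. The gene positions of the count table also differ from those of the printed GRCm38.p6 windows, so the 2 sets of coordinates cannot be compared directly. No source used here gives the aligner, the counter or the strand setting. Groups came from the sample titles; the table heads the exposed columns High, a word the titles do not use, and they were read as the exposed group beside columns headed Control. The design text describes another assay and was not used. Gene length, a deposited column whose other use is not stated, served for CPM per kb.

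Rows without a gene name (1284 of 42380, 2.73% to 4.28% of counts) stayed out of library sizes and tests. The test on the whole table was that of edgeR 4.0.16 (R 4.3.3): filterByExpr with a minimum count of 10, TMM scaling and a robust quasi-likelihood fit without covariates; p-values are two-sided and Benjamini-Hochberg adjusted over 12468 genes. Standard errors are derived from the F statistic. Alternatives were RLE scaling, 2 other filters, DESeq2 1.42.0, limma-voom (limma 3.58.1), a non-robust fit, a replicate block, antisense rows added to members, each library left out, and control replicates 1 and 2 left out together. The fit was tested on simulated data first, with an outcome that is not reported here. The chi-square between libraries of 1 group, divided by its degrees of freedom, was 30.6 or more for every pair.

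The members, lists and tests were chosen with earlier results of these data known. Named genes are the 9 members, up to 4 genes of a list past the threshold or otherwise its 3 of highest mean CPM, further genes whose groups do not overlap, rows near a member, and for the 2 most variable members the 3 genes with the smallest root mean square difference of centred log2 CPM. Nr0b2, Cyp8b1, Cps1, Sox9, Sympk and the locus near Onecut1 fall outside this rule and were named after their values were seen.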

Additional observations from a re-analysis of the deposited data

How the results depend on the processing

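Of 135 values of the 9 members under 15 alternative settings, 128 kept their direction and their side of the threshold and 7 changed sign; 0 members passed in any of these fits. Leaving out control replicates 1 and 2 together keeps 1 control library, so the exposed libraries alone give the spread and a count of 0 there says nothing about stability. The changes of sign concerned Hnf4a, Cebpa, Onecut1 and Nr5a2. Leaving out 1 library gave -0.20 to 0.12 for Hnf4a, -0.18 to 0.19 for Cebpa, -0.59 to 0.90 for Onecut1, and -0.0051 to 0.16 for Nr5a2. Without control replicates 1 and 2 together, Cebpa lay at -0.20 and Hp at 0.029. Leaving out 1 library also turned Klf15 (-0.44 to 0.084), Alb (-0.21 to 0.11), Pck1 (-0.25 to 0.14), Spp1 (-0.53 to 0.15) and Tat (-0.37 to 0.40), and Tat lay at 0.029 with limma-voom and 0.039 with the replicate block. Of 582 values of 39 other named genes, 553 kept direction and side of the threshold, 11 changed sign and 18 newly passed, all of the latter with no low-count filter, DESeq2, or control replicate 3 or DEHP replicate 1 left out. The number of calls over all genes, 9 as reported, was 496 with no low-count filter, 272 with DESeq2, 2 with limma-voom, and 0 with the 1 control library left after omitting control replicates 1 and 2 (edgeR, 642 at an unadjusted p of 0.05), and ran from 5 to 400 with 1 library left out, highest without control replicate 3. The cause was not tested.

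The labels share replicate numbers 1 to 3, but same-numbered libraries did not deviate together (correlations from -0.03 to 0.06, and 1 of 3 controls correlated best with its own number). With the replicate block 6 genes were called and 0 members, and the mean log2 ratio of Cebpb to Cebpa differed by -0.36 (two-sided exact permutation of signs over 3 pairs, p = 0.25, the smallest possible). That ratio kept its sign under all the settings tried on it, from -0.56 to -0.23 with 1 library left out. The Foxa shares, whose alternatives were chosen after the data were seen, kept their direction with each library left out, with control replicates 1 and 2 left out and without length scaling, at -16.1 to -8.28 percentage points for Foxa3. With 3 libraries a group the printed intervals limit what can be said of each member, and Onecut1 is limited by its low counts.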
